A study of Mus musculus with 4 samples.

Results

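Gene expression was examined for departures from additivity between PA, which is palmitic acid, and medium conditioned by stem cells of adipose tissue (ADSCs) in IMS/N cells, an immortalized hepatic stellate cell line. All 4 arrays of the series were used, 1 per condition, and 17359 of 26812 gene names on the array entered because their probe was well above background on all 4. For each gene the contrast was (PA and ADSC medium minus PA) minus (ADSC medium minus control) on quantile-normalized log2 intensity. A contrast of 0 means that the differences with PA and with ADSC medium added up on the log2 scale. A positive contrast means that the array with both (the combined array) lay above that sum, and a negative contrast that it lay below. The same number is obtained by subtracting the PA difference without medium from the PA difference with medium.

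The recipient cells were the same in all 4 conditions, a line derived from hepatic stellate cells of normal 129/Sv mouse liver and immortalized by SV40 infection. One culture condition received neither addition (control), another PA, another ADSC medium, and the last PA together with ADSC medium. The ADSCs came from inguinal subcutaneous fat of male C57BL/6J mice aged 8 to 10 weeks. The labels give no dose or duration of PA, and do not say which medium or vehicle the cultures without additions received, so the vehicle of PA and the medium of the ADSCs cannot be told apart from their active components. The line carries viral sequences and is a single immortalized source, which limits it as a model of stellate cells in the liver.

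With 1 array per condition no difference could be tested against the spread between cultures, no p-value was computed, and every result below is a description of 4 arrays. The only spread that could be measured was that between spots of the same probe on an array, from 245 probes printed on 10 spots each. It gave an SD of the contrast of 0.351 at mean levels up to 5 and of 0.083 at mean levels of at least 11 (log2). Between 67.56% and 70.03% of probes were well above background on an array, and no spot was saturated. The 75th percentile of intensity before normalization was highest on the PA array, at 602.3 against 472.5 to 518 on the other arrays; its part in the contrasts was not tested beyond the other scalings given at the end. Of the 12 stellate or myofibroblast markers 9 were well above background on every array, and Hand2, Lrat and Reln on none. So were 6 of 10 adipose, 3 of 7 hepatocyte, 4 of 8 macrophage, 3 of 6 endothelial, 4 of 6 biliary or epithelial and 4 of 6 mesothelial or portal fibroblast markers. The summed intensity of the adipose markers was 14300 to 14900 on the arrays without ADSC medium and 20900 to 21500 on those with it, and that of the macrophage markers 800 to 834 and 1190 to 1350; their part in the contrasts was not tested. The summed intensity of the mesothelial or portal fibroblast markers was 100000 to 106000, against 148000 to 175000 for the stellate or myofibroblast markers. Among the markers well above background on no array were Alb (hepatocyte), Adgre1 and Ptprc (macrophage and leukocyte), Pecam1 (endothelial), Epcam (epithelial) and Adipoq and Plin1 (adipocyte). Other members of each of these lists were well above background on every array, so the lists do not exclude a cell type.

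Stellate cells store retinoids in the healthy liver and, once activated, become contractile cells that produce collagen, chemokines and matrix-degrading enzymes. Saturated fatty acids place a load on cell membranes and on the endoplasmic reticulum and can start inflammatory signalling. Conditioned medium carries the cytokines, growth factors and metabolites that its donor cells released, and these can act on the recipient through receptors that may share intracellular pathways with a fatty acid. In a 2 by 2 design on the log2 scale, a gene is additive where the fold of one addition is the same with and without the other. The contrast does not by itself show whether the additions act through the same or separate routes.

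Most genes lay close to the additive expectation, and with the filter on all 4 arrays the departures past 2-fold ran mainly upward. The median contrast was -0.01 with quartiles of -0.17 and 0.14, and 47.9% of genes were above 0 and 52% below. At least 2-fold above additive (contrast of at least 1) were 155 genes, or 0.893% of the genes measured. At least 2-fold below (contrast of at most -1) were 53 genes, or 0.305%. Above additive were 74.5% of these calls, against 55.0% where 1 array well above background sufficed and 51.2% with no filter, and the normexp background left 37 genes above and 1 below. At 1.5-fold the counts were 682 (3.93%) and 483 (2.78%).

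**Figure D1:**
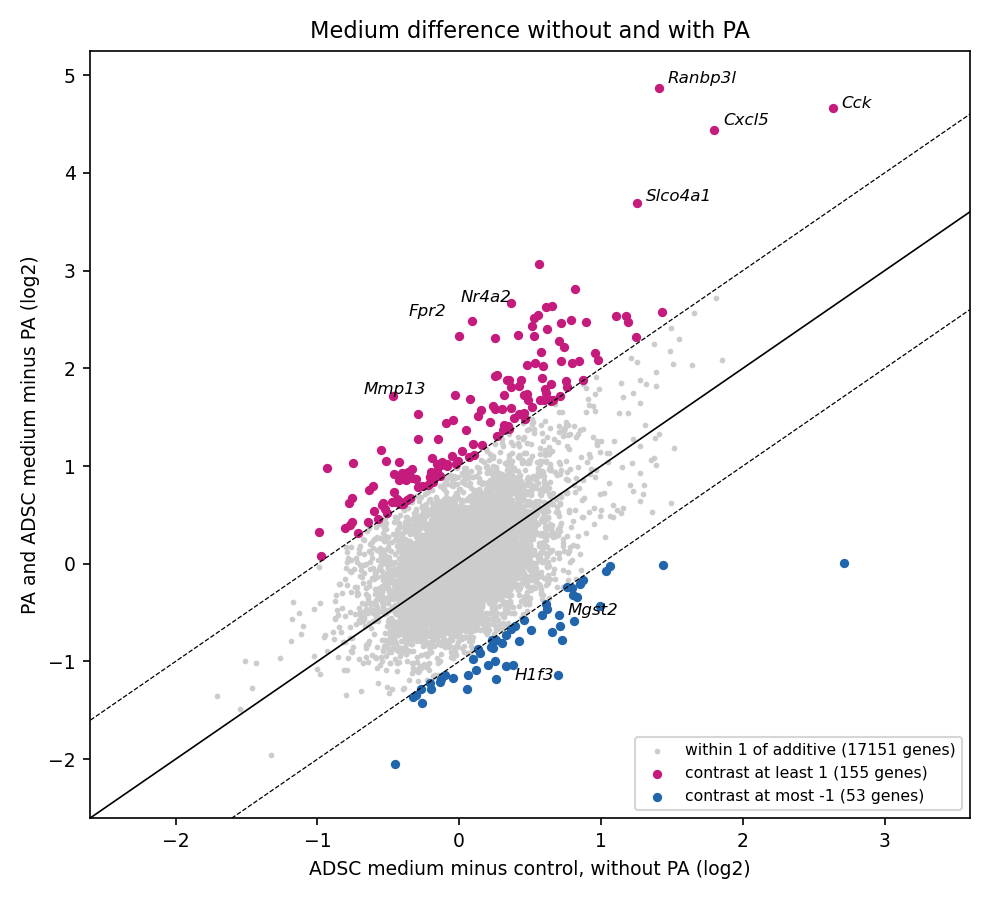
Each point is 1 of 17359 genes, with the difference between ADSC medium and control on the x axis and that between PA with ADSC medium and PA alone on the y axis (both log2); the solid line is additivity and the dashed lines lie 1 above and below it. The 155 genes above the upper dashed line reach a contrast of 3.46 (Ranbp3l), and the 53 below the lower one are fewer and closer to it.

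The calls in both directions were more frequent at low levels, and those below additive sat mostly near the background. The share of genes called above additive fell from 1.93% at mean levels up to 5 to 0.16% at mean levels above 11. The share called below fell from 1.15% to 0 between the same ranges. Of the 53 genes below additive, 41 had a mean level of at most 5, against 69 of the 155 above. The median mean level was 3.84 for genes below, 5.40 for genes above and 8.64 for all genes measured. At mean levels of at least 5 there were 86 genes above (0.624%) and 12 below (0.087%), and at mean levels of 9 to 11 there were 13 above and 0 below, and at mean levels of at least 11 there were 7 above and 0 below. Past 3 SD of the spot spread at their level lay 142 of the 155 and 41 of the 53. At mean levels above 5 the spot SD of the contrast was at most 0.177, so every call there passes by construction. These counts follow largely from the 2-fold threshold and do not support the calls. No share over all genes was computed for them. Of the 22 genes above additive with another probe that passed the filter, 18 had every such probe at least 1.5-fold above additive; of the 17 below with another probe, 6 had every one at least 1.5-fold below.

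**Figure D2:**
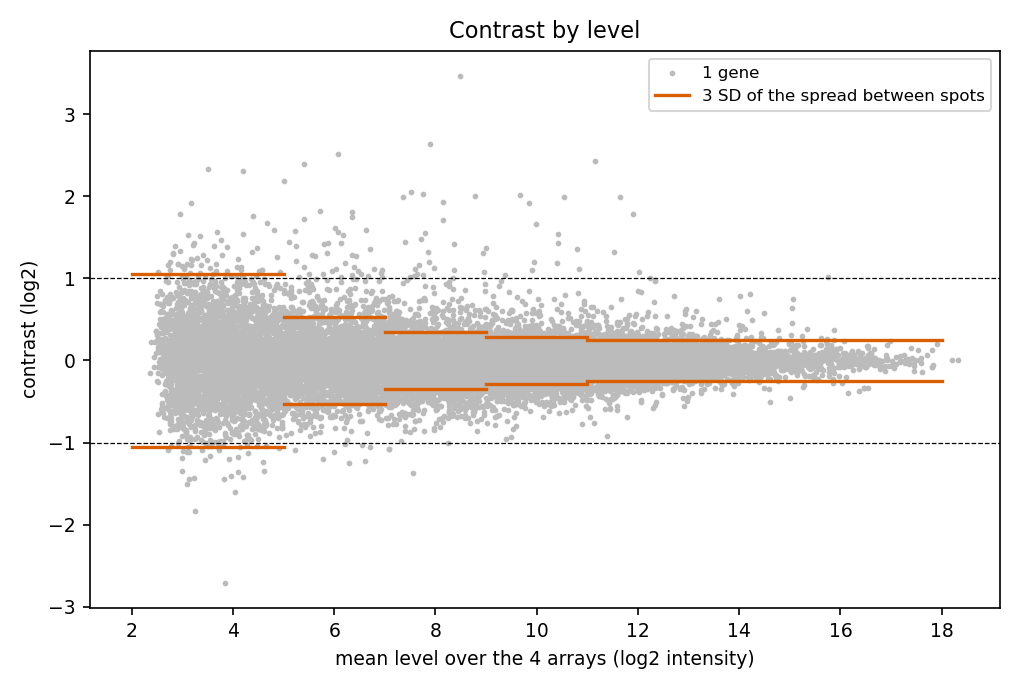
The contrast of each gene (y axis, log2) is plotted against its mean level over the 4 arrays (x axis, log2 intensity), with 3 SD of the spread between spots drawn for each of 5 ranges of level and dashed lines at 1 and -1. The cloud is widest at low levels, where 3 SD of the spot spread is slightly more than 1, and no gene with a mean level of at least 9 lies at or below -1.

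The most common form above additive was a gene lower with PA alone that was highest on the combined array. The combined array was the highest of the 4 for 137 of the 155 genes, and the PA array was the lowest for 125. No share over all genes was computed for these counts, and a positive contrast favours both by construction. PA alone was at least 1.5-fold below control for 81 of the 155 (2.74% of all genes measured) and above for 2 (2.59% of all). ADSC medium alone was at least 1.5-fold above control for 35 (1.93% of all) and below for 14 (0.991% of all). The combined array was at least 1.5-fold above the PA array for 144 (4.59% of all), above the ADSC medium array for 98 (3.07% of all) and above control for 86 (4.16% of all). All 5 differences share arrays with the contrast, so a gene that is low on the PA array alone has a higher contrast by construction, and these counts describe the called genes without supporting the calls. Neither addition alone reached 1.5-fold for 51 of the 155, and for 32 PA was lower alone and higher in the presence of the medium. For these last counts too no share over all genes was computed, and they only describe the called genes.

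Below additive, the common form was a gene higher with PA alone or with medium alone that was not higher on the combined array. PA alone was at least 1.5-fold above control for 27 of the 53 genes (2.59% of all genes measured) and the medium alone for 19 (1.93% of all). With each of them, 9 were above control. The combined array was at least 1.5-fold below the PA array for 37 (3.22% of all). The combined array was within 1.5-fold of control for 40, and it was the lowest of the 4 arrays for 37. For these last counts and for the 9 genes no share over all genes was computed. All these differences share arrays with the contrast. A gene high on the PA or medium array alone, or low on the combined array alone, has a lower contrast by construction. The counts describe the called genes without supporting the calls.

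The thresholds cut through a continuous distribution. Just inside the upper one were Tent5c at 1.0, Nr4a1 at 1.01 and Kdm7a at 1.01, and just outside it the olfactory receptor gene Olfr1495 and Lman1l, both at 1.0 after rounding. Just inside the lower one were Papolg and Tcf23, both at -1.0, and just outside it Hmx3, Zfp759 and Slc16a6, each at -0.99.

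Ranbp3l, which encodes a Ran-binding protein that exports Smad proteins from the nucleus, had the highest contrast of all genes measured. Its log2 level was 8.20 on the control array, 5.62 with PA, 9.61 with ADSC medium and 10.49 with both. PA alone thus gave the lowest level and PA with medium the highest. The intensity was 2.65-fold higher with medium than without it in the absence of PA and 29.2-fold higher in its presence, and the contrast of 3.46 was 2.59 with another background correction (normexp). The probe lies at chr15:8996153-8996212 of mm9, the build on which the array files are annotated. The genes whose 4 levels, each centred on its mean, were closest to those of Ranbp3l were Slco4a1 (root mean square distance of 0.534), Cck (0.557), Cxcl5 (0.766), 4921509J17Rik (0.788) and Gstt4 (0.800), over 4 arrays.

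Slco4a1, a transporter of organic anions that include thyroid hormone, and Cck, the precursor of the peptide hormone cholecystokinin, had the same order of arrays as Ranbp3l. Slco4a1 stood at 10.62 on the control array, 9.21 with PA, 11.87 with medium and 12.90 with both. Cck stood at 6.52, 5.34, 9.15 and 10.00 in that order of conditions. In both genes the medium alone was well above control, PA alone below it, and the combined array above the medium alone. Their contrasts were 2.43 and 2.03. For Cck, the medium gave a 6.20-fold higher intensity without PA and a 25.4-fold higher one with it.

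Fpr2, a formyl peptide receptor of innate immune cells that also binds serum amyloid A, was dimmer, at 5.34, 4.18, 5.43 and 6.66 on the control, PA, medium and combined arrays. The medium alone left it near control and only the combined array stood clearly above. Its contrast of 2.39 was 1.06 with the normexp background, so its size depends on how background is treated. Lrrn3, a leucine-rich repeat membrane protein of neurons, stood at 8.44, 7.30, 9.25 and 10.11, for a contrast of 2.0 with its brightest probe and 1.84 with its other probe. Gem, a small GTP-binding protein that inhibits voltage-gated calcium channels, stood at 9.52, 8.70, 10.03 and 11.13, for a contrast of 1.92. Baiap3, which acts in vesicle trafficking, stood at 5.75, 5.06, 5.46 and 6.59, with both additions alone below control and the combined array above it, for a contrast of 1.82 (1.0 with the normexp background, just under 2-fold).

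**Figure D3:**
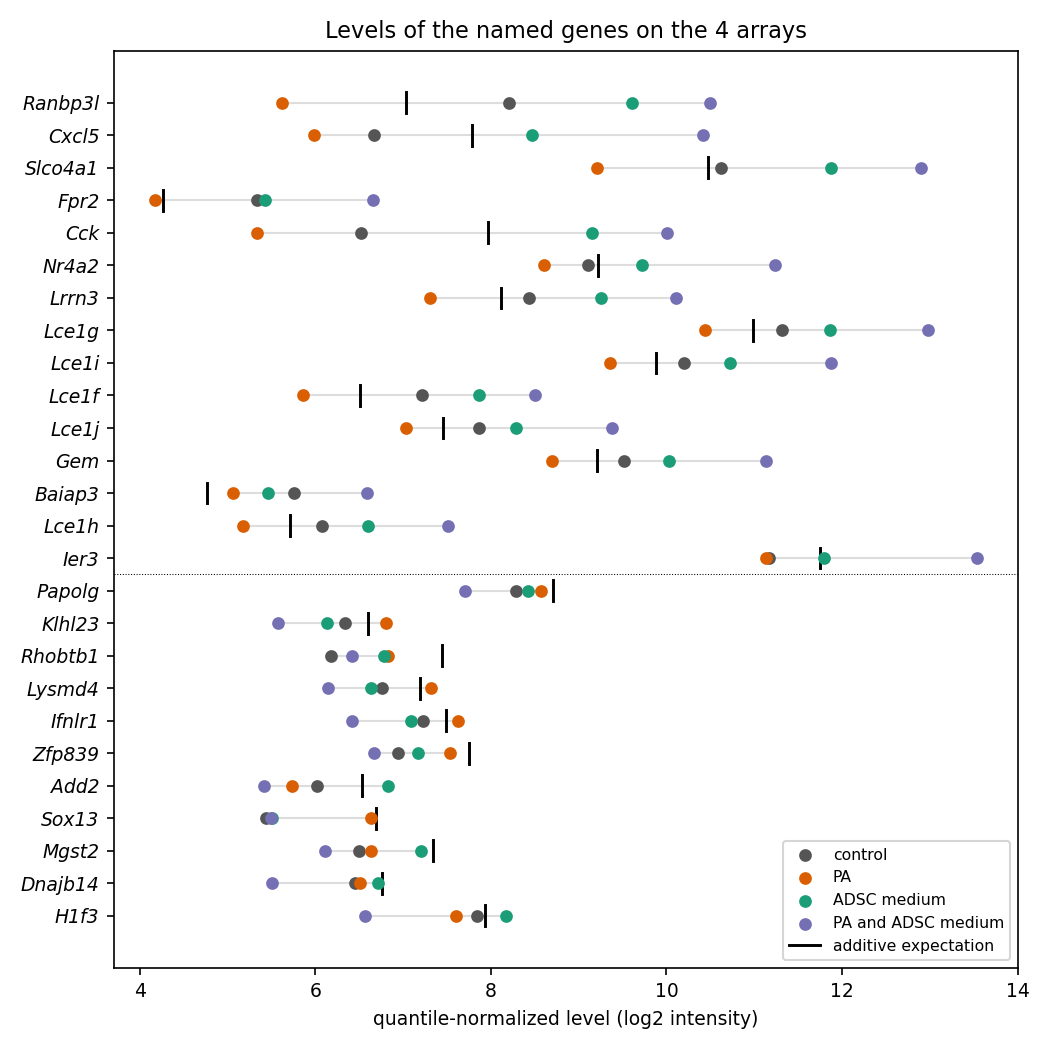
For each named gene the 4 points are its quantile-normalized levels (x axis, log2 intensity) on the control, PA, ADSC medium and combined arrays, and the black bar is the level that additivity of PA and medium would give on the combined array. For the 15 genes above the dotted line the combined array is to the right of the bar by 1.78 to 3.46, and for the 11 below it the combined array is to the left of it, with contrasts of -1.37 to -1.0.

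Among the chemokines, cytokines and NF-kB targets, 11 of the 24 genes that passed the filter (34 in the list) were at least 1.5-fold above additive (3.93% of all genes measured) and 0 below (2.78% of all), and 5 were at least 2-fold above (0.893% of all). The same shares over all genes apply to the counts of the lists that follow. Their median contrast was 0.35, against -0.01 over all genes measured. Cxcl5, a chemokine that attracts neutrophils, stood at 6.67 on the control array, 5.98 with PA, 8.47 with medium and 10.42 with both, for a contrast of 2.64. Cxcl1, another neutrophil chemokine, stood at 9.23, 9.79, 10.33 and 12.33, so that PA and medium alone were each above control and the combined array was above their sum by 1.44. Ptgs2, the inducible cyclooxygenase of prostaglandin synthesis, stood at 9.38, 9.48, 9.65 and 11.41. The first 3 arrays of Ptgs2 were within 0.27 of each other and only the combined array was high, for a contrast of 1.66 with one probe and 1.78 with the other. Ier3, an early response gene that modulates survival, stood at 11.17, 11.14, 11.79 and 13.53, again with PA alone at the control level and the combined array the highest, for a contrast of 1.78.

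Ccl8, a monocyte chemokine, stood at 7.33, 6.85, 8.29 and 9.01, for a contrast of 1.20 (0.92 with the normexp background), and Ccl2, the main monocyte chemokine, at 14.56, 14.98, 14.78 and 15.94, for a contrast of 0.74. Il1rl1, the receptor of IL-33, had a contrast of 0.92. The other genes at least 1.5-fold above additive, named here after their values were seen, were the cytokine Il33, the monocyte chemokine Ccl7, the NF-kB regulator Nfkbiz and the acute phase gene Saa3. Il33 was at 0.80 (0.51 with the normexp background, under 1.5-fold) and Saa3 at 0.65 (0.04 with the normexp background). Ccl7 was at 0.78, and 0.76 with its other probe, and Nfkbiz at 0.76. Within 1.5-fold of additive, the contrast was 0.13 for Il6, a cytokine of the acute phase response, -0.39 for Vcam1, a leukocyte adhesion molecule, and -0.40 for Lcn2, an iron-sequestering acute phase protein.

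The promoter of Cxcl1 is shown because the NF-kB motif, which is known to act there, could be located in it by letters. The 250 bases before its transcription start lie at chr5:90890995-90891244 of GRCm38.p6, plus strand, and the capitals mark the stretch of matches to NF-kB (GGGA, any 4 bases, then CC, on either strand, overlapping matches counted).
Cxcl1: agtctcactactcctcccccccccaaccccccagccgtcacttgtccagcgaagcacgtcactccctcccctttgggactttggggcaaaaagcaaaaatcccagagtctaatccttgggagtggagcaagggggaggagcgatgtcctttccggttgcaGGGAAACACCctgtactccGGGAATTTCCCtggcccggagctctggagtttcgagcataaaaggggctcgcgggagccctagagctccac

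The promoter sequences are those of RefSeq, and 85 of the 155 genes above additive and 35 of the 53 below had an entry. A match to the NF-kB motif was present in the 250 bases before the start of 15 of the 85 genes above (17.6%) and 11 of the 35 below (31.4%), against 25.4% of the 11630 measured genes with an entry and 19.7% of the 27018 genes in the table. The AP-1 motif (TGANTCA) was present in 10 of the 85 above (11.8%) and 3 of the 35 below (8.57%), against 5.82% of measured genes and 7.82% of all. The interferon-stimulated response element (GAAA, any 2 bases, then GAAA) was present in 5.88% of the genes above and 2.86% of those below, against 3.23% of measured genes. The cyclic AMP response element (TGACGTCA) was in 0 of the 85 and 0 of the 35, against 2.82% of measured genes. The Nr4a motif (AAAGGTCA) was in 1 of the 85 genes above (1.18%) and 1 of the 35 below (2.86%), against 1.18% of measured genes. The CArG box was in 3 above (3.53%) and 0 below, against 1.5% of measured genes. Ptgs2, Ier3, Nr4a1 and Nr4a2, which were also above additive, held no match to any of these motifs in their 250 bases. The matches counted are of letters and are not sites of binding.

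Of the immediate early and Nr4a genes, which respond to a stimulus without new protein synthesis, 6 of 30 that passed were at least 1.5-fold above additive, 2 of them at least 2-fold, and 0 below. The list median was 0.20. Nr4a2, an orphan nuclear receptor, stood at 9.11 on the control array, 8.61 with PA, 9.72 with medium and 11.23 with both, for a contrast of 2.01. Its relative Nr4a1 stood at 11.72, 11.56, 12.43 and 13.28, for a contrast of 1.01. In both, PA alone was slightly below control and PA with medium was the highest. Arc, which regulates synaptic receptor traffic in neurons, had a contrast of 0.97, while Egr1, a zinc finger factor of the same early class, was at -0.23. Of the 6, Egr3 and Fosl2 are named here after their values were seen. Egr3 was at 0.91 (0.12 with the normexp background), at levels of 3.39 to 4.46, near background. Fosl2 was at 0.63 with its brightest probe (0.54 with the normexp background) and 0.98 with its other.

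Late cornified envelope genes of the Lce1 family, which encode proteins of the outer skin barrier and lie side by side on chromosome 3, formed a block of high contrasts. The cornified envelope and keratinocyte list had 19 of 27 genes past the filter, 8 at least 1.5-fold above additive, 6 of them at least 2-fold, and 2 at least 1.5-fold below. Not every gene of this kind named below is in the list. Its median contrast of 0.33 was 0.09 with the normexp background. Lce1g stood at 11.31 on the control array, 10.44 with PA, 11.87 with medium and 12.98 with both, for a contrast of 1.99. Lce1i stood at 10.20, 9.36, 10.73 and 11.88, for a contrast of 1.99. Lce1f stood at 7.21, 5.86, 7.87 and 8.50, also for 1.99. PA alone was the lowest array and the combined array the highest for each of these genes, as it was for Lce1j (contrast of 1.93), Lce1h (1.81) and Lce1e (1.58, and 0.78 with the normexp background).

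The Lce1 genes with high contrasts were neighbours, an observation made after their values were seen. On mm9 the probes of Lce1e, Lce1f, Lce1g, Lce1h, Lce1i and Lce1j follow each other, among the Lce1 genes measured, from 92511365 to 92593217 on chromosome 3. On one side, Lce1a1 had a contrast of -0.02 and Lce1b one of 0.14. On the other, Lce1l had 0.12 and Lce1m -0.11. Of these 4, Lce1b had the highest levels, of 7.18, 6.93, 7.33 and 7.22, while Lce1a1 was near background on every array, at 2.77 to 2.92. Lce1a2, Lce1c and Lce1d were on no array well above background and have no contrast. The Lce1 transcripts are similar in sequence, so that a probe may also bind RNA of a neighbour, and the values of single members are uncertain for that reason. Over the 45 pairs of the 10 measured genes, the longest run shared by both probes was 4 to 17 bases, and a second probe of Lce1g gave a contrast of 0.64 against 1.99 for the brightest one, whereas that of Lce1j gave 1.90 against 1.93.

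**Figure D4:**
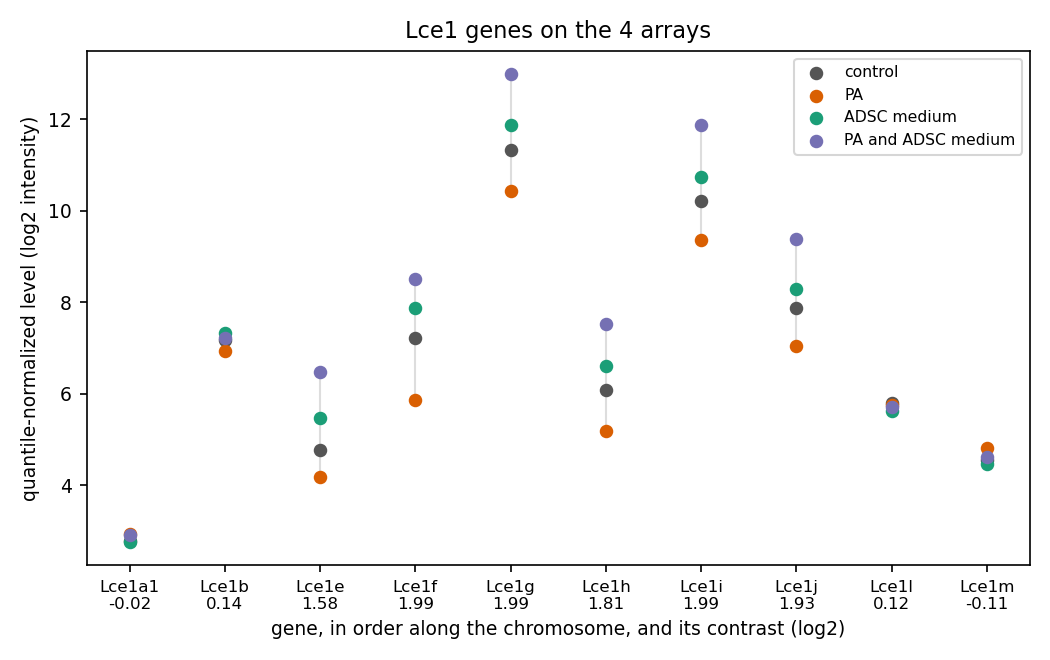
The 4 points per gene are its quantile-normalized levels (y axis, log2 intensity) on the control, PA, ADSC medium and combined arrays, for the 10 Lce1 genes measured, in order along the chromosome, with the contrast (log2) under each name. From Lce1e to Lce1j the order is PA, control, ADSC medium, combined array in every gene, and in the 2 genes on either side the 4 points lie close together.

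The sequence before the start is shown for the 4 of these genes that met the rule for named genes and have an entry in the RefSeq promoter table, and for Lce1b, the neighbour with the highest levels among those with a contrast near 0. Each line holds the last 90 bases before the transcription start on GRCm38.p6, minus strand, and the capitals mark the 43 bases that are the same in all 4 at the same distance from the start, and in Lce1b those of the 43 that it shares. Lce1g lies at chr3:92752339-92752428, Lce1h at chr3:92765066-92765155, Lce1i at chr3:92778900-92778989, Lce1j at chr3:92790515-92790604 and Lce1b at chr3:92656927-92657016.
Lce1g: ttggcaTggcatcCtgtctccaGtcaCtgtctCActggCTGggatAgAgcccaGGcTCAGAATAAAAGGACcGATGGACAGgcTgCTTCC
Lce1h: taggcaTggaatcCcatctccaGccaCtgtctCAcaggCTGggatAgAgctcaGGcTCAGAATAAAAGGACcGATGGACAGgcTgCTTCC
Lce1i: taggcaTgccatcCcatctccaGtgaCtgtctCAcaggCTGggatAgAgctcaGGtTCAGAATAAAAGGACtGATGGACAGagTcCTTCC
Lce1j: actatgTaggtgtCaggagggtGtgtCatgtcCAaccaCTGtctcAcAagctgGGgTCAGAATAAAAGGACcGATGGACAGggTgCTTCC
Lce1b: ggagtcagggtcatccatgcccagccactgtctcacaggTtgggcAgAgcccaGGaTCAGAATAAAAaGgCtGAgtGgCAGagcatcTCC

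Without gaps, Lce1g and Lce1h were identical at 92.2% of these positions, Lce1h and Lce1i at 90%, and Lce1i and Lce1j at 51.1%. Most of the shared bases lay near the start, and the farther ones differed mainly in Lce1j. Lce1b held 27 of the 43, so that much of this stretch is common to genes with high contrasts and to one near additive. Other cornified envelope and keratinocyte genes did not share the pattern: Sprr1a, a precursor of the cornified envelope, stood at 7.72, 8.43, 8.97 and 10.75, with each addition alone above control and a contrast of 1.07. Crct1, a cysteine-rich protein of the same gene region, had a contrast of -0.83, and Cdsn, an adhesion protein of the outer skin layer, -0.65 (-0.43 with the normexp background).

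Among solute carriers and amino acid transporters, 5 of 22 genes that passed were at least 1.5-fold above additive, 3 of them at least 2-fold, and 1 was below, with a list median of 0.02. Slc1a3, a glutamate and aspartate transporter, stood at 6.16 on the control array, 5.43 with PA, 7.05 with medium and 7.91 with both, for a contrast of 1.58 with its brightest probe (0.96 with the normexp background) and 1.89 with the other. Slc5a3, which carries myo-inositol, an osmolyte, into cells, stood at 9.72, 8.92, 10.36 and 10.77, for a contrast of 1.20. Both were lowest with PA alone and highest on the combined array. Slc16a6, a monocarboxylate transporter, was the lowest of the list, at 7.28, 8.03, 7.11 and 6.88, with PA alone the highest array and a contrast of -0.99.

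Of the heat shock genes, 2 of 19 were at least 1.5-fold above additive, 1 of them at least 2-fold, and 0 below, with a median of 0.10. Both were inducible Hsp70 chaperones with near-identical coding sequences, so their signals may not be separable. Hspa1b stood at 8.06, 7.79, 8.21 and 9.36 on the control, PA, medium and combined arrays, and only the combined array was clearly high, for a contrast of 1.42. The contrast of Hspa1a was 0.77.

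Collagen and matrix genes were mostly slightly above additive, with 27 of 35 genes above 0 (47.9% of all genes measured) and a median contrast of 0.17. Only 4 reached 1.5-fold above, and 2 of these 2-fold. Those 2 were small leucine-rich proteoglycans that bind collagen or mineral. Aspn stood at 6.38 on the control array, 4.72 with PA, 7.09 with medium and 7.19 with both, for a contrast of 1.75 (0.85 with the normexp background). Omd stood at 7.99, 6.30, 8.34 and 7.68, for a contrast of 1.03 (0.69 with the normexp background). In both, PA alone was the lowest array. With medium present, PA made little difference to Aspn, and Omd was still lower with PA. Of the fibrillar collagens, Col1a1 had a contrast of 0.02, and Col3a1 one of 0.28 with its brightest probe and of 0.02 and 0.53 with its others. The probes of Col1a2 disagreed, with a contrast of 0.21 for the brightest and 0.99 for the other. Prelp, another proteoglycan of the family, was at -0.55 (-0.36 with the normexp background).

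Contractile and activation genes gave a median contrast of 0.04, which was -0.0017 when all probes of a gene were averaged. Of 22 genes 1 was at least 1.5-fold above additive and 2 below, and 0 reached 2-fold. Pdgfrb, the receptor through which platelet-derived growth factor drives stellate cell growth, stood at 12.39, 11.46, 12.74 and 12.78 on the control, PA, medium and combined arrays, for a contrast of 0.97. It was low on the PA array alone. Acta2, the smooth muscle actin of activated stellate cells, had a contrast of 0.41 with its brightest probe and of 0.05 to 0.17 with its 3 other probes, and Tagln, an actin-binding protein, one of 0.46. Des, the intermediate filament desmin, had a contrast of -0.98 at levels of 3.38 to 4.51, near background, and -0.22 with the normexp background.

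Of the metalloproteinases and the plasminogen system, 6 of 22 genes were at least 1.5-fold above additive (3.93% of all genes measured), 1 of them at least 2-fold (0.893% of all), and 2 were at least 1.5-fold below (2.78% of all), with a median of 0.07. Mmp13, the main interstitial collagenase of rodents, stood at 5.0 on the control array, 6.15 with PA, 5.08 with medium and 7.83 with both. Medium alone left it at the control level, PA alone was higher, and the combined array was highest, for a contrast of 1.61. Mmp3, stromelysin, stood at 8.69, 5.73, 10.34 and 8.29, for a contrast of 0.91 on the log2 scale (0.31 with the normexp background) but -624.5 on the linear intensity scale. PA was lower than its partner array both without and with medium for Mmp3, by a smaller fold with it but by more intensity, so whether it is above or below additive depends on the scale. Serpinb2, an inhibitor of plasminogen activators, had a contrast of 0.93 (0.58 with the normexp background, just under 1.5-fold), and Plat, tissue plasminogen activator, 0.83. Mmp2, a gelatinase, was at -0.61 and Mmp15, a membrane-anchored metalloproteinase, at -0.59, and at -0.47 and -0.20 with the normexp background. Timp1, an inhibitor of these enzymes, was at 0.22.

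The Mmp13 promoter is shown because it holds the AP-1 motif, known to act on this gene, close to the start. Its 250 bases lie at chr9:7272264-7272513 of GRCm38.p6, plus strand, and the capitals mark the match to AP-1 (nearer the start, at the right) and a match to the interferon-stimulated response element on the other strand.
Mmp13: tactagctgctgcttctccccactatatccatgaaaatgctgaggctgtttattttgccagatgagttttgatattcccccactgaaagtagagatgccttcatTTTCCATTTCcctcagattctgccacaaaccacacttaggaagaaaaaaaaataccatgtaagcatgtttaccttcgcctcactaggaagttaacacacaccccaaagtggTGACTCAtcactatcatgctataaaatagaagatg

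The interferon response was, with the p53 targets, among the lists with the lowest median contrast, by a small amount. Its genes were high with PA whether or not medium was present: the median PA difference over the 35 genes that passed was 2.10 without medium and 2.06 with it. Their median contrast was -0.16, with 27 below 0 (52% of all genes measured), 5 at least 1.5-fold below additive, and 0 at least 1.5-fold above. Rsad2 (viperin, an antiviral enzyme) stood at 7.66 on the control array, 11.03 with PA, 8.25 with medium and 10.67 with both, for a contrast of -0.95. Tap1, which carries peptides to MHC class I, stood at 7.40, 9.02, 7.34 and 8.11, for a contrast of -0.85. In both, the 2 arrays with PA were above the 2 without it, and the difference was smaller in the presence of medium. Ifit3 was at -0.68 and the immunoproteasome subunit Psmb9 at -0.63, whereas Irf7, a factor that amplifies interferon production, was at 0.25 and the chemokine Ccl5 at 0.32.

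The genes furthest below additive among those with a mean level of at least 5 differed less from additivity than those above, and the rule for named genes left 11. H1f3, a linker histone, stood at 7.85 on the control array, 7.61 with PA, 8.18 with medium and 6.56 with both. Only its combined array was clearly low, for a contrast of -1.37, and it was the 1 gene below additive past 2-fold with the normexp background (-1.0). Histone H1 genes are similar in sequence and mostly lack poly(A) tails, so this value is uncertain. Mgst2, a microsomal glutathione transferase that also makes leukotriene C4, stood at 6.50, 6.64, 7.20 and 6.11, for a contrast of -1.23. Sox13, a transcription factor, stood at 5.44, 6.63, 5.51 and 5.50, so that PA alone was high and the other 3 arrays were alike, for a contrast of -1.20. Ifnlr1, the receptor subunit for type III interferons, stood at 7.22, 7.63, 7.09 and 6.42, for a contrast of -1.07.

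The other genes of that set were Dnajb14, a co-chaperone of the endoplasmic reticulum (-1.25), Add2, a membrane skeleton protein (-1.12), Zfp839 (-1.08), Lysmd4 (-1.06), Rhobtb1 (-1.03), Klhl23 (-1.02) and Papolg, a poly(A) polymerase (-1.0). Where one of these 11 genes had other probes that passed, those gave smaller contrasts, such as -0.68 and -0.42 for Dnajb14 and -0.38 for Papolg. Their sign was the same because the rule for named genes required it.

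Of the growth factors and receptors, 4 of 28 were at least 1.5-fold above additive, 1 of them at least 2-fold, and 1 was below (median 0.12). Ereg, a ligand of the EGF receptor, stood at 5.30, 5.60, 5.76 and 7.15 on the control, PA, medium and combined arrays, for a contrast of 1.09 (0.67 with the normexp background), with only the combined array high. Angpt2, which opposes Angpt1 at the Tie2 receptor, was at 0.70 (0.37 with the normexp background) and Angpt1 at -0.77, the latter at levels of 2.64 to 3.42, near background. In the TGF-beta, BMP and CCN list 2 of 27 were at least 1.5-fold above and 1 below (median 0.05). Its highest were Ltbp2, a matrix protein of the latent TGF-beta binding family, at 0.64 and Pmepa1, a TGF-beta target that dampens the pathway, at 0.62 (0.52 and 0.57 with the normexp background), and its lowest was the BMP antagonist Chrdl1 at -1.09, near background (-0.12 with normexp). In the Wnt list 2 of 20 were above and 0 below (median 0.05), led by the feedback gene Axin2 at 0.74 and the secreted inhibitor Sfrp2 at 0.64 (0.36 and 0.49 with the normexp background).

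Genes of lipid handling were near additive with few exceptions. Abcg1, which exports cholesterol to high-density lipoprotein, stood at 7.76 on the control array, 6.91 with PA, 8.55 with medium and 9.41 with both, for a contrast of 1.71. Abca1, which exports cholesterol to apolipoprotein A-I and is a target of the same LXR receptors, stood at 6.82, 6.49, 7.60 and 6.67, for a contrast of -0.61 (-0.51 with the normexp background). These 2 exporters were thus both higher with medium alone and lower with PA alone, and parted on the combined array. Over the LXR target list 2 of 13 were at least 1.5-fold above additive and 1 below (median -0.08). Of the cholesterol synthesis genes 0 of 25 passed 1.5-fold either way (median -0.10, with 19 below 0, against 52% of all genes measured). Of the genes of fatty acid synthesis, oxidation and PPAR targets 1 of 37 was below, the peroxisomal oxidation enzyme Ehhadh at -0.96 (-0.31 with the normexp background), near background, and 0 were above (median -0.08).

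Retinoid and quiescence genes had 2 of 17 at least 1.5-fold above additive, 1 of them at least 2-fold, and 0 below (median 0.12). Both were enzymes that break down retinoic acid. Cyp26b1 stood at 8.10, 7.26, 8.13 and 8.41 on the control, PA, medium and combined arrays, for a contrast of 1.13 (0.79 with the normexp background), with PA alone low. Cyp26a1 was at 0.98, and at 0.18 with the normexp background. Among p53 targets, in a line immortalized with a virus whose large T antigen binds p53, 1 of 21 was above additive and 0 below (median -0.15): Sesn1, a stress-induced inhibitor of growth signalling, stood at 10.73, 9.95, 11.15 and 11.48, for a contrast of 1.12.

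The stress and growth lists held few departures. Of the unfolded protein response genes 0 of 22 passed 1.5-fold (median 0.08), and of the ATF4 and amino acid stress genes 3 of 29 were above and 0 below (median 0.01), led by Slc38a2, a neutral amino acid transporter, at 0.80 and Chac1, which degrades glutathione, at 0.64. For NRF2 and antioxidant genes the count was 0 of 27 (median -0.0028, which was 0.03 with scaling to the 75th percentile), and for cell cycle genes 0 of 36 (median -0.01, which was 0.02 with that scaling). In the hypoxia and glycolysis list 1 of 29 was above and 2 below (median 0.06): Adm, a vasodilator peptide, was at 0.60 (0.52 with the normexp background), the glucose transporter Slc2a3, at levels of 3.94 to 4.81 and thus near background, at -0.80 (-0.24 with normexp), and Pdk1, which inhibits pyruvate dehydrogenase, at -0.62 (-0.57 with normexp). Of the complement genes 1 of 13 was above, Serping1, an inhibitor of the first component, at 0.80 (0.24 with the normexp background), and 0 were below; the list median was -0.10, and 0.03 when the list was recomputed with the normexp background. Of the housekeeping genes 0 of 18 passed 1.5-fold (median 0.03).

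**Figure D5:**
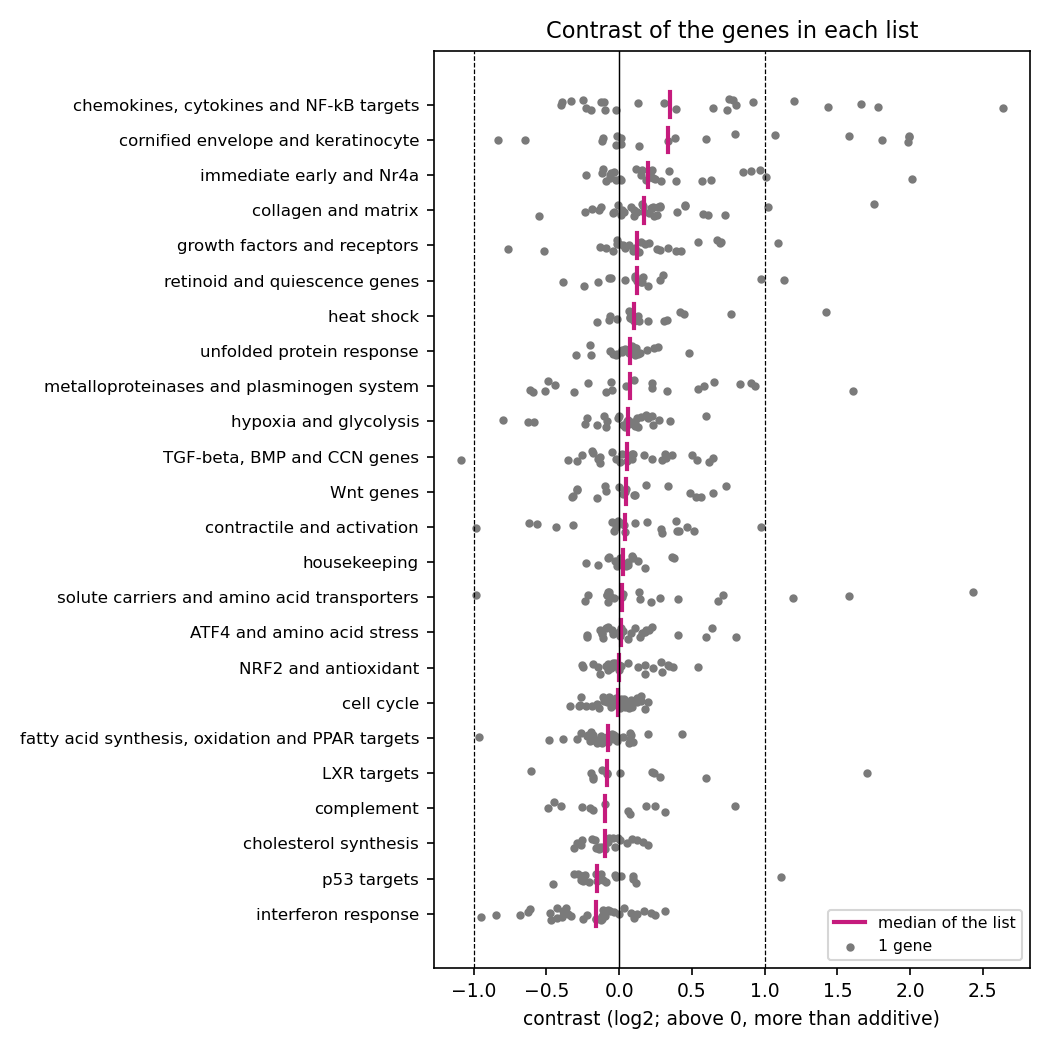
Each grey point is the contrast (x axis, log2) of 1 gene that passed the filter, by gene list (y axis), with the median of each list as a red bar and dashed lines at 1 and -1. The list medians run from -0.16 (interferon response) to 0.35 (chemokines, cytokines and NF-kB targets), and single genes lie far from their list, such as Slco4a1 at 2.43 among solute carriers.

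The filter left out genes that were not well above background on every array, some of which carry a bound. Well above background on the combined array alone were 185 genes, against 272 on the PA array alone, 90 on the medium array alone and 41 on the control array alone. On all arrays but the PA array were 64 genes. Lgr6, a receptor for R-spondins of the Wnt pathway, had levels of 5.35 on the control array, 6.61 with medium and 6.71 with both, and was not well above background with PA alone, at least 8.09-fold below control. Slc15a3, a peptide transporter of lysosomes, was at least 6.73-fold below control with PA alone. Such bounds use, on the dim array, the higher of the gene's own level and the lowest level well above background, and no contrast was computed for these genes.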

How the data were processed

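Total RNA of 4 cultures was labelled with Cy3 and hybridised to 4 one-colour Agilent arrays (design 014868). The deposited intensity of each spot had its background subtracted and trends within the array removed, with no normalization between arrays, by Agilent Feature Extraction 12.1.1.1, per the file headers; R 3.5.1 is named in the submitters' processing notes. Per the series' design text the authors then quantile-normalized the values; that step was repeated here on the deposited signal.

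Control spots and outlier-flagged spots (82 to 104 per array) were left out, spots of a probe averaged on the log2 scale, and the arrays quantile-normalized (limma 3.58.1, data.table version 1.17.8, R 4.3.3; tables and figures in Python 3.11.15 with numpy 2.4.6, pandas 2.3.3 and matplotlib 3.10.9). Of 41174 probes 41146 had a value on all arrays, and 27205 were well above background on all (flag on more than 50% of spots). Symbols came from the RefSeq genes for 29204 probes and from the array for 11970; the brightest passing probe stood for a gene. The contrast code was tested on simulated data.

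Named genes were the 15 highest and, at most, the 15 lowest contrasts among genes with an ordinary symbol, a mean level of at least 5, a contrast past 2-fold and past 3 SD of the spot spread, at least 1.5-fold the same way with the 75th percentile scaling and with normexp (offset 50), and no passing probe of opposite sign: 59 genes met this above additive and 11 below. Also named were the 2 highest and 2 lowest of each list, preset genes of the lists, the 5 genes most like the top one, and those next to a threshold; Col1a2, the other Lce1 genes, Lgr6 and Slc15a3 were chosen after their values were seen. The members and the 24 gene and 7 marker lists (704 entries, 702 on the array, 623 passing) were chosen with earlier results of these data known. No test was possible with 1 array per condition.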

Additional observations from a re-analysis of the deposited data

Results flagged for a closer look

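For 13 of the 26 named genes PA was at least 1.5-fold lower than control alone and at least 1.5-fold higher than ADSC medium in its presence. The difference between the 2 effects, which is the contrast on the log2 scale, was not tested, since each condition has 1 array. The named genes were chosen by this contrast, so that PA effects of opposite sign are favoured among them by construction. No share over all genes was computed for the 13, and the count supports nothing. It was 3.46 for Ranbp3l, 2.64 for Cxcl5, 2.43 for Slco4a1, 2.39 for Fpr2 and 2.03 for Cck. It was 2.0 for Lrrn3, 1.92 for Gem and 1.82 for Baiap3. Among the Lce1 genes it was 1.99 for Lce1g, 1.99 for Lce1i, 1.99 for Lce1f, 1.93 for Lce1j and 1.81 for Lce1h.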

How the results depend on the processing

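No paired analysis was possible because each condition has 1 array. The 155 genes above additive and 53 below became 37 and 1 with the normexp background, whose offset compresses folds of dim probes, and all of these were among the original calls. With scaling to the 75th percentile there were 32 below; 86.6% of the calls were then above additive, against 74.5% with quantile normalization, 78.0% with cyclic loess and 97.4% with normexp. Filtering on at least 1 array gave 342 and 280 (55.0% above), no filter 930 and 887 (51.2% above), and a mean level of at least 6 gave 68 and 9 (88.3% above); at 1.5-fold there were 682 and 483. A mean level of at least 5, added after seeing the data, gave 86 and 12. All 155 and 53 kept their sign on the linear scale. For the 149 named genes a reversal there was counted only where the log2 contrast was at least 1.5-fold either way. Only Mmp3 reversed by that rule (-624.5), and sign changes of smaller contrasts were not counted. Normexp moved 55 of the 149 contrasts by more than the spot SD. The median of all genes moved by less than 0.1 with each scaling.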

Other observations

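Genes of cell volume and osmolyte balance were put together as a list after the values of several of them had been seen, so that the counts below describe these genes and support nothing. The list includes Ranbp3l, the gene with the highest contrast, as well as Slc5a3, Slc38a2, Hspa1a and Hspa1b, which are described above. Of 19 such genes, all of which were measured, 19 had a contrast above 0 (47.9% of all genes measured), 13 were at least 1.5-fold above additive (3.93% of all) and 8 at least 2-fold (0.893% of all), with a median of 0.80 (0.71 with the normexp background). Akr1b3, the aldose reductase that makes sorbitol, stood at 15.33 on the control array, 15.01 with PA, 15.97 with ADSC medium and 16.68 with both, for a contrast of 1.02 with one probe and 1.33 with the other. Slc6a12, the betaine transporter, stood at 6.58, 7.08, 7.56 and 9.17, with PA alone above control, for a contrast of 1.11 (0.99 with the normexp background). Hspa4l, a chaperone induced by osmotic stress, stood at 11.28, 10.52, 11.87 and 12.42, and its 4 probes gave contrasts of 1.23 to 1.55.

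Atp1b1, the beta subunit of the sodium pump, stood at 10.33, 9.41, 10.67 and 11.29, for a contrast of 1.55, and the water channel Aqp1 at 10.34, 9.39, 10.82 and 11.07, for a contrast of 1.19. Both were lowest with PA alone and highest on the combined array. Nfat5, the transcription factor of the response to high salt, stood at 11.37, 10.83, 11.51 and 11.57, with PA alone the low array, for a contrast of 0.60; its other probes gave 0.32 to 0.62. The urea transporter Slc14a2 was at 0.04. The labels do not state the osmolality of the media.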
